A study of Mus musculus with 19 samples.

Results

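Tumour necrosis factor (TNF) and its relatives are a family of membrane ligands and receptors through which leukocytes order each other to survive, to become inflamed or to die, and 9 of its genes are described here in myeloid-derived suppressor cells of the mouse spleen. The genes were chosen by name: Tnf, Tnfsf10, Tnfsf13b, Tnfsf14 and Tnfsf9 encode ligands, and Tnfrsf1a, Tnfrsf1b, Tnfrsf10b and Fas encode receptors. Each symbol matched 1 row of the deposited table, which held 38887 genes in all. The clearest differences lay in 2 of them. Tnfsf13b, the ligand BAFF that keeps B cells alive, was 9.11-fold higher in newborn than in adult PMN-MDSC, and Tnfrsf1b, the second TNF receptor, was lower in newborn than in adult PMN-MDSC and higher in M-MDSC than in PMN-MDSC at both ages.

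Myeloid-derived suppressor cells (MDSC) hold back T cell responses. The study compared 4 groups of spleen cells: newborn M-MDSC (5 libraries), adult M-MDSC (3 libraries), newborn PMN-MDSC (5 libraries) and adult PMN-MDSC (6 libraries). The newborns were aged 7 days, the adults 6 to 8 weeks. M-MDSC, the monocyte-like form, were sorted as CD11b+ cells with high Ly6C and no Ly6G, and PMN-MDSC, the neutrophil-like form, as CD11b+ Ly6G+ cells with intermediate Ly6C; cells were first enriched on CD11b beads, and the labels also describe Ly6G bead columns for PMN-MDSC. The labels name no strain, sex, genotype or treatment, and do not say whether a library came from 1 animal or a pool, so every p-value measures only the spread between these libraries.

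TNF binds 2 receptors. TNFR1, from Tnfrsf1a, carries a death domain and can lead either to NF-kB activation or to caspase and necroptotic death, while TNFR2, from Tnfrsf1b, lacks a death domain and works through TRAF adaptors. TRAIL, from Tnfsf10, and Fas ligand signal death through Tnfrsf10b, the only mouse TRAIL receptor with a death domain, and through Fas. In MDSC, membrane TNF acting on TNFR2 is known to favour survival, and death receptors are known to limit the lifespan of these cells in tumour-bearing mice.

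Several features of the libraries bear on what follows. Total counts were 827744 to 2965896 in the 10 libraries of batch 1 and 14026193 to 45135933 in the 9 of batch 2, and both batches held libraries of every group. A count of 0 allowed up to 3 counts, which in CPM, the depth-scaled count unit used throughout, is 0.0601 to 0.197 in batch 2 and 0.990 to 3.29 in batch 1, for counting error only. In PMN-MDSC, 5 library pairs lay much closer to each other across the batches than the 10 other cross-batch pairs: in adults, replicate 1 with 32, replicate 2 with 33 and replicate 3 with 34; in newborns, replicate 2 with 37 and replicate 3 with 38. The chi-square per degree of freedom within these pairs was 2.38 to 6.29, against 6.89 to 19.7 for the others, which is more than sampling noise. The labels do not say whether a pair is 1 sample sequenced in both batches, so n counts libraries and may exceed the number of separate samples, and results are also given without the batch 1 partners. Adult M-MDSC replicate 28 had 0 counts for 3.74% and newborn M-MDSC replicate 77 for 1.71% of the genes at 10 CPM or more in the rest of their groups. Ly6g averaged 0.877 CPM in newborn and 0.277 CPM in adult M-MDSC, and 213 ± 25.1 CPM in newborn and 19.6 ± 4.46 CPM in adult PMN-MDSC (SD, n = 5 and 6). The summed markers of B cells differed by age in both cell types: 172 to 298 CPM in newborn and 1039 to 2562 CPM in adult M-MDSC, and 652 to 1000 CPM in newborn and 4441 to 7077 CPM in adult PMN-MDSC. In these bulk samples, fewer cells of a type and less RNA per cell cannot be told apart. Kdm5d, a gene of the Y chromosome, had 0 counts in all 9 adult libraries and counts in all 10 newborn ones. Xist, a gene expressed from the X chromosome in females, stood at 63.1 to 525 CPM in newborn and 555 to 2154 CPM in adult libraries. Newborn libraries thus held RNA of both genes. The mix of sexes and age cannot be told apart either.

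Levels below are in CPM, and changes are log2 fold changes with their standard error from edgeR's quasi-likelihood test on all 19 libraries with a batch term. A change was called at a Benjamini-Hochberg adjusted p under 0.05 over the 12943 genes tested, and all 9 members passed the expression filter. In PMN-MDSC 4 of the 9 members were called, 2 higher and 2 lower in newborns, where 47.7% of all genes tested were called (27.1% higher and 20.5% lower; with upper-quartile scaling 21.3% higher and 27.4% lower). In M-MDSC 4 of the 9 were called, all 4 lower in newborns, where 30.2% of genes were called (15.9% higher and 14.3% lower). The median change of the members was -0.84 in PMN-MDSC, against -0.05 for all genes, and -0.83 in M-MDSC, against 0.01 for all genes. The values of newborns and adults did not overlap for 5 members in PMN-MDSC, where 51.4% of all genes did not overlap, and for 3 members in M-MDSC, where 23.1% did not.

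**Figure D1:**
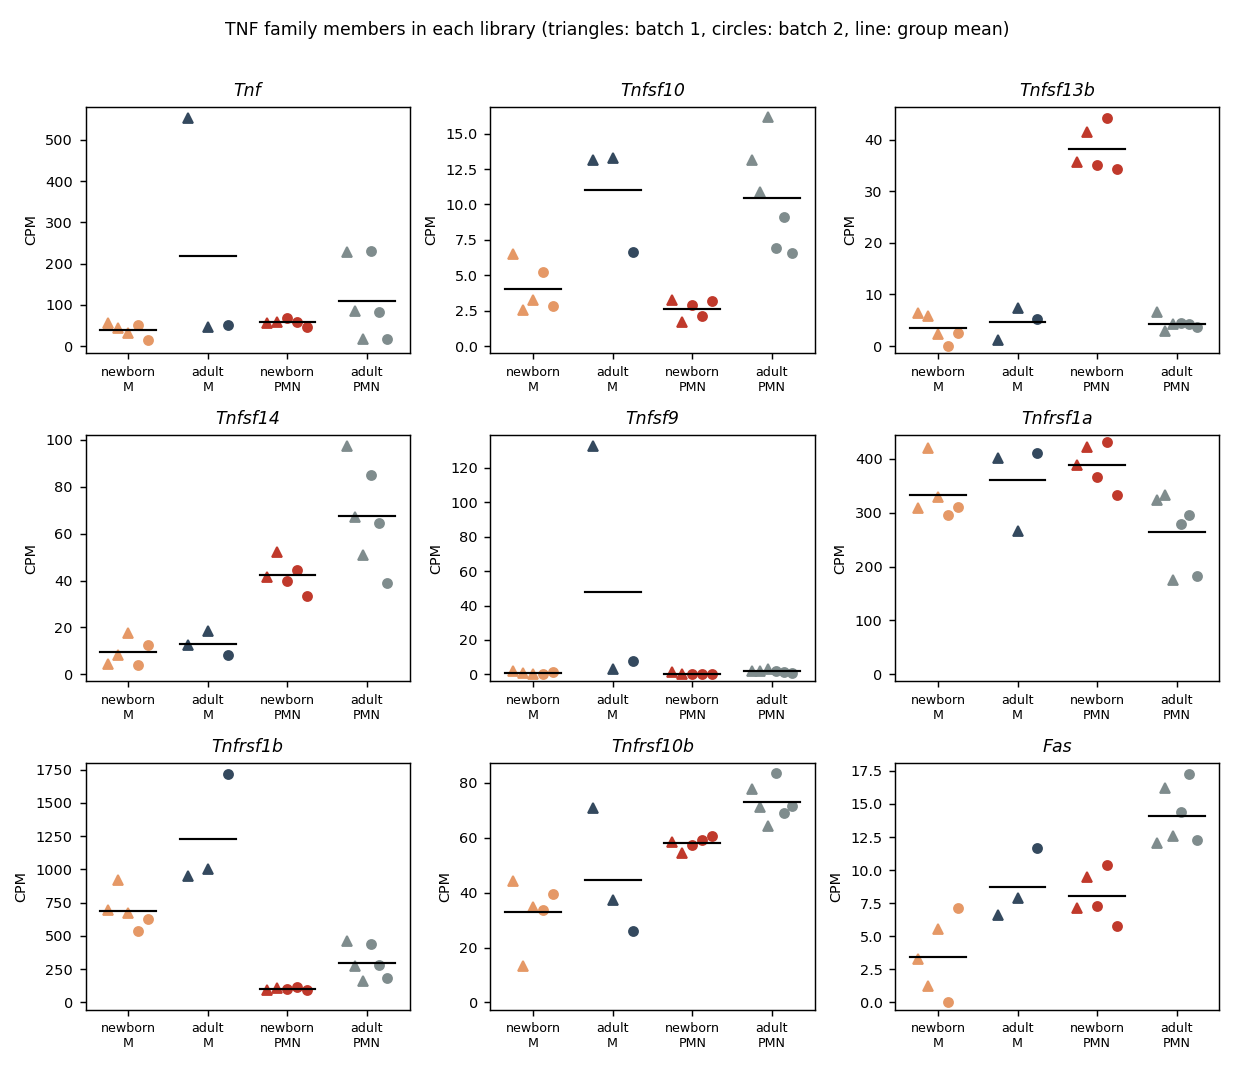
Level of each of the 9 genes (y axis, CPM, each panel with its own scale) in each of the 19 libraries, by group along the x axis, with triangles for batch 1, circles for batch 2 and a line at the group mean. Newborn PMN-MDSC stand apart for Tnfsf13b at 34.3 to 44.2 CPM, 1 adult M-MDSC library stands apart for Tnf at 554 CPM and for Tnfsf9 at 133 CPM, and Tnfrsf1b is higher in every M-MDSC library than in every PMN-MDSC library.

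Tnfsf13b and Tnfrsf1b carried the age differences that were called under every alternative tried in PMN-MDSC, so their promoters are shown here. Each is the window from 250 bases before to 50 bases after the start site in RefSeq on GRCm38.p6, written 5′ to 3′ on the gene's own strand, with letters found by a motif search in capitals. Tnfsf13b has 2 RefSeq windows, and the one at chr8:10006383-10006682 (plus strand) is printed because it held both motifs: TGAGTCA, an AP-1-type site, 127 bases before the start, and GAAAGTGAAA, of the interferon regulatory factor (IRF) type, 16 bases before it. The Tnfrsf1b window, chr4:145246821-145247120 (minus strand), held another match to the IRF-type pattern on the opposite strand, TTTCGCTTTC, 10 bases before the start.
Tnfsf13b: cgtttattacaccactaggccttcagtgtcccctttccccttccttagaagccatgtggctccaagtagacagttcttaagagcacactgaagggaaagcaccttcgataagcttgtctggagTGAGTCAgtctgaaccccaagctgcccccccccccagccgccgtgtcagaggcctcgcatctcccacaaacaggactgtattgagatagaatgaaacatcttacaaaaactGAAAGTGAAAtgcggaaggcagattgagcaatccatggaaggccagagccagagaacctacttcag
Tnfrsf1b: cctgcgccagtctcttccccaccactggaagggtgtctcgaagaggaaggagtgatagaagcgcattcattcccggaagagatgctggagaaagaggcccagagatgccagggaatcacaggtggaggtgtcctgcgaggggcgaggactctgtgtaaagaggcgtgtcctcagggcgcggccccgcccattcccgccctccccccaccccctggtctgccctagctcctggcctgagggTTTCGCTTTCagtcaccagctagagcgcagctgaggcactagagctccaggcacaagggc
The IRF-type motif, GAAA followed by any 2 bases and another GAAA on either strand, was in 2 of the 8 windows of the 7 members with a RefSeq entry and in 3.44% of 32851 mouse promoters of the same length. The AP-1-type motif, TGANTCA on either strand, was in 4 of the 8 windows and in 7.81% of promoters. The 2 Tnfsf13b windows overlap and hold the same AP-1-type site, which is thus counted in both. The motif was also in the windows of Fas, 211 bases before the start, and Tnfsf14, 160 bases before it. An NF-kB-type motif, GGGA followed by any base and TTTCC on either strand, was in none of the 8 and in 0.41% of promoters. The matches printed do not overlap each other. The motifs were picked after the sequences had been seen, and they describe letters, not binding.

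Among the ligands, Tnfsf13b alone was called higher in newborns. The gene lies at chr8:10006467-10039072 on the plus strand (GRCm38, GENCODE M21), where Gm44789 overlaps it on the minus strand; no source says whether reads were counted by strand, so the reads of 2 such genes cannot be told apart. In newborn PMN-MDSC Tnfsf13b stood at 34.3 to 44.2 CPM (38.2 ± 4.41, SD, n = 5), against 2.97, 4.22 and 6.58 CPM as lowest, median and highest of adult PMN-MDSC (4.35 ± 1.21, n = 6). Every newborn library was above every adult one. The change was 3.19 ± 0.64 (SE; adjusted p = 0.000430, edgeR's quasi-likelihood test), and 3.25 without the batch 1 partners (adjusted p = 0.0369).

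Tnfsf13b did not follow age in the same way in M-MDSC. There it had 0 to 6.50 CPM in newborns (3.42 ± 2.68, n = 5), against 1.10, 7.47 and 5.18 CPM in the 3 adult libraries (4.58 ± 3.23). The 0 was replicate 77, the newborn library with many genes at 0. The groups overlapped, with a change of -0.75 ± 0.80 (adjusted p = 0.519, edgeR). The age effect in M-MDSC minus that in PMN-MDSC was -3.93 ± 1.01 (adjusted p = 0.0103, edgeR). It was the only one of the 9 members called for this difference, where 18.1% of all genes were called (11.5% lower and 6.61% higher; with upper-quartile scaling 8.76% lower and 8.94% higher), and the median was -0.50 for the members and -0.06 for all genes. The call was not kept in batch 1 alone (-3.06, adjusted p = 0.0869) or without the batch 1 partners (-4.07, adjusted p = 0.103). Set directly against newborn PMN-MDSC, newborn M-MDSC had 14.3-fold less Tnfsf13b (-3.83 ± 0.75, adjusted p = 0.000422, edgeR), with no overlap.

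The receptors of BAFF were other members of the family, and they moved differently from their ligand. Tnfrsf13c, the BAFF receptor of B cells, averaged 2.05 ± 0.501 CPM in newborn and 28.0 ± 10.7 CPM in adult M-MDSC, and 11.4 ± 3.02 CPM in newborn and 101 ± 18.005 CPM in adult PMN-MDSC. It fell in newborns of both cell types (-3.89 ± 0.29 in M-MDSC, adjusted p = 3.16e-08, and -3.10 ± 0.23 in PMN-MDSC, adjusted p = 2.82e-09, edgeR). All 13 B cell markers measured fell with it in both comparisons, and their part in this result was not tested. Tnfrsf13b, the BAFF and APRIL receptor TACI, was lower in newborn PMN-MDSC (28.2 ± 6.66 CPM, against 89.5 ± 25.7 CPM in adult PMN-MDSC) and higher in newborn M-MDSC (141 ± 33.1 CPM, against 60.3 ± 26.7 CPM in adult M-MDSC). Its change was 1.18 in M-MDSC and -1.70 in PMN-MDSC, both called.

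Tnf, the family's founding ligand, is made by macrophages, monocytes and neutrophils on activation and is held low at rest by decay of its mRNA. Its gene lies at chr17:35199381-35202007 on the minus strand. The mRNA is destabilised by proteins of the Zfp36 family, which bind AU-rich stretches of its 3′ end, and since 3 of that family are described below, the 30 bases of the Tnf transcript richest in the nonamer TTATTTATT (chr17:35199681-35199710, minus strand, GRCm38) are shown, with the 4 overlapping copies of the nonamer in capitals.
Tnf: ttaTTATTTATTATTTATTTATTATTTATT
After their stop codons, both Tnf transcripts hold 5 nonamers, Tnfrsf10b holds 1, and Tnfsf13b holds 1 in a transcript that the deposited table does not list; the transcripts of the other 6 members with an annotated stop codon hold 0.

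Tnf varied more between adult libraries than between ages. In newborn PMN-MDSC it had 56.9, 58.8, 67.3, 59.3 and 47.0 CPM (57.9 ± 7.26), against 16.1, 83.4 and 231 CPM as lowest, median and highest of adult PMN-MDSC (110 ± 97.6, n = 6). Newborn libraries thus lay close together and inside the adult range, and the change of -0.87 ± 0.68 was not called (adjusted p = 0.313, edgeR). The adult spread followed the matched libraries: replicates 1 and 32 had 228 and 231 CPM, replicates 2 and 33 had 85.2 and 81.7 CPM, and replicates 3 and 34 had 16.2 and 16.1 CPM. Partners differed by at most 1.04-fold, while the highest and lowest libraries differed 14.1-fold in batch 1 and 14.4-fold in batch 2.

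The same order of adult PMN-MDSC libraries appeared in other members and in genes of the TNF response. Tnfrsf1b differed 2.78-fold between the highest and lowest library in batch 1 and 2.40-fold in batch 2, and Tnfsf14 1.91-fold and 2.18-fold, both in the order of Tnf and with partners at most 1.10-fold and 1.31-fold apart. Tnfaip3, which encodes the ubiquitin-editing inhibitor A20, had 1379 and 1355 CPM in the first pair, 821 and 844 CPM in the second and 314 and 326 CPM in the third. Nfkbia, the inhibitor of NF-kB that NF-kB itself induces, ran likewise, with 1406 and 1381, 951 and 913, and 345 and 337 CPM. Tnfrsf1a kept one order too, with replicates 2 and 33 highest and 3 and 34 lowest, while Fas, Tnfrsf10b, Tnfsf10, Tnfsf13b and Tnfsf9 did not keep one order in both batches. B cell marker sums ran the other way, with 4441 and 4597 CPM in the first pair, 5312 and 5356 in the second and 6954 and 7077 in the third. Dendritic cell marker sums ran with Tnf, at 615 and 638, 509 and 519, and 463 and 478 CPM. The sum of the basophil and mast cell list did too, at 1055 and 1083, 874 and 847, and 422 and 419 CPM, nearly all of it Hdc, while the basophil protease gene Mcpt8 stood at 0 to 1.10 CPM and Tpsb2 at 0. Macrophage (1607 to 3554 CPM) and monocyte (1404 to 2241 CPM) marker sums also varied between adult PMN-MDSC libraries, and their order was not compared with that of Tnf. The part of these cells in the result was not tested.

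**Figure D2:**
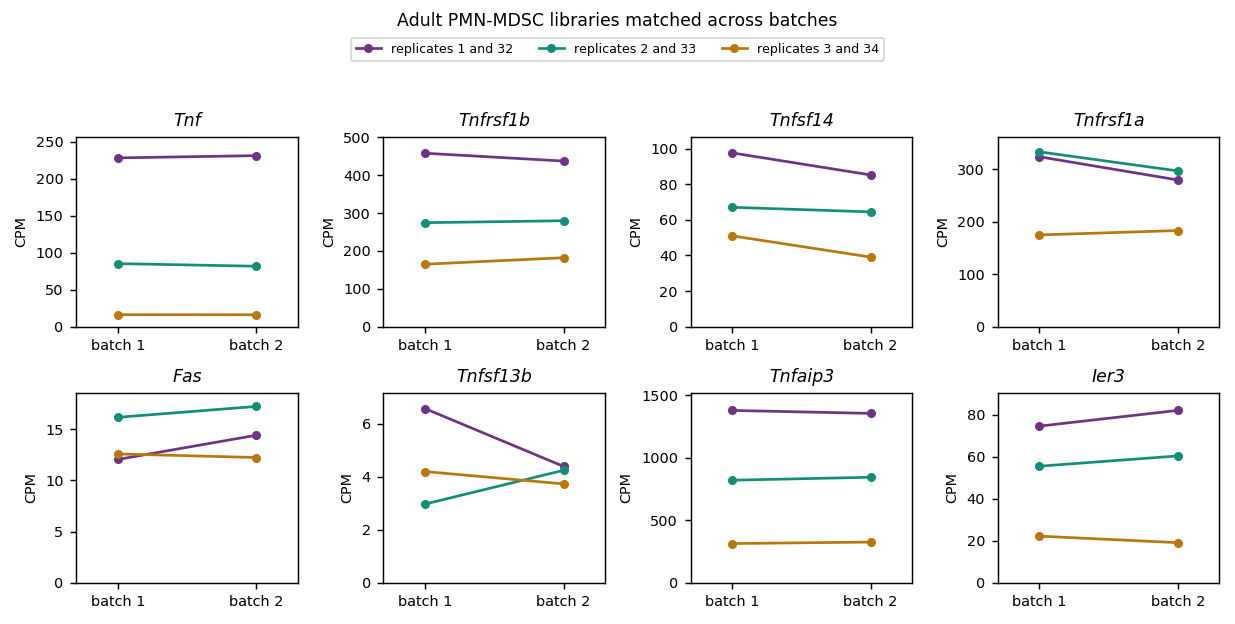
Level (y axis, CPM) of 6 members and of Tnfaip3 and Ier3 in the 3 matched pairs of adult PMN-MDSC libraries, batch 1 on the left and batch 2 on the right of each panel, with a line joining each pair. The lines for Tnf, Tnfrsf1b, Tnfsf14, Tnfaip3 and Ier3 run nearly flat and in one order, with Tnf at 228 and 231 CPM in the highest pair and 16.2 and 16.1 CPM in the lowest, while the lines for Fas and Tnfsf13b cross.

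In M-MDSC, Tnf was called lower in newborns, and the call rested on single libraries, above all on 1 adult library. Newborn M-MDSC had 56.2, 43.0, 31.0, 50.2 and 13.6 CPM (38.8 ± 16.9), against 554, 46.9 and 52.2 CPM in adult replicates 1, 3 and 28 (218 ± 291). The groups overlapped, since only replicate 1 lay above the newborn range. The change was -2.37 ± 0.82 (adjusted p = 0.0357, edgeR), but -0.42 without adult replicate 1 (adjusted p = 0.737), and the adjusted p was 0.0506, 0.0596, 0.0707 or 0.0678 without newborn replicate 1, 2, 3 or 79. Without the batch 1 partners in the PMN-MDSC groups it was 0.0931, at -2.21. Adult replicate 1 was also highest for Tnfaip3 (2525 CPM, against 464 and 259 CPM in replicates 3 and 28), Nfkbia (1808 CPM, against 499 and 384 CPM) and Ier3 (205 CPM, against 14.9 and 41.7 CPM). Its B cell marker sum was the lowest of the 3 (1039 CPM, against 2562 and 2491 CPM) and its dendritic cell marker sum the highest (452 CPM, against 403 and 343 CPM), and their part in the result was not tested. Adult PMN-MDSC replicate 1, of the same number and batch, was likewise the highest adult PMN-MDSC library of batch 1 for Tnf, Tnfaip3 and Nfkbia. The labels do not say whether these libraries share animals. With a block of replicate numbers the Tnf call in M-MDSC was lost, as given below.

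Tnfsf9, the ligand of the costimulatory receptor 4-1BB (CD137), had the lowest mean level per length of the 9 genes in all groups but adult M-MDSC. Its range overlapped that of Tnfsf10 in each of those groups, so the 2 cannot be ordered there. Tnfsf9 also turned on adult M-MDSC replicate 1. The gene lies at chr17:57105325-57107757 on the plus strand and is overlapped by Gm11110 on the minus strand. It had 1.86, 0.641, 0, 0 and 1.13 CPM in newborn M-MDSC (0.725 ± 0.791), against 133, 2.91 and 7.83 CPM in adult replicates 1, 3 and 28 (47.8 ± 73.6). All 3 adult libraries were above every newborn one, and the change was -5.57 ± 1.11 (adjusted p = 0.000887, edgeR), but without adult replicate 1 it was -3.02 (adjusted p = 0.0700). In PMN-MDSC it stood at 0 to 1.09 CPM in newborns (0.408 ± 0.417), against 0.859 to 3.00 CPM in adults (1.91 ± 0.721), a change of -2.12 ± 0.97 that was not called (adjusted p = 0.0800, edgeR). It was called without newborn M-MDSC replicate 77 (adjusted p = 0.0438); in this model all groups share one estimate of the spread. Most of these values lay at or under the floor of a batch 1 library, so low levels of Tnfsf9 could not be told from 0 there. Tnfrsf9, its receptor, did not pass the filter, with 0 to 3.29 CPM in the adult libraries.

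Tnfsf10, which encodes the death ligand TRAIL, was lower in newborns of both cell types. It lies at chr3:27317028-27342427 on the plus strand. In PMN-MDSC it stood at 1.73 to 3.28 CPM in newborns (2.64 ± 0.677), against 6.61, 10.0 and 16.2 CPM as lowest, median and highest of adults (10.5 ± 3.72), without overlap, and the change was -1.84 ± 0.38 (adjusted p = 0.000508, edgeR). Adult PMN-MDSC averaged 13.4 CPM in batch 1 and 7.56 CPM in batch 2, partners differed by up to 2.45-fold, and without the batch 1 partners the change was -1.41 and was not called (adjusted p = 0.10003), nor was it with the pairs as a random block (-1.34, adjusted p = 0.107, limma). In M-MDSC it stood at 2.57 to 6.50 CPM in newborns (4.07 ± 1.71), against 6.62 to 13.3 CPM in the 3 adult libraries (11.0 ± 3.81), again without overlap. The lowest adult value was replicate 28, the only adult M-MDSC library of batch 2 and one with many genes at 0. Adult M-MDSC averaged 13.2 CPM in batch 1, and newborn M-MDSC 4.10 CPM in batch 1 and 4.01 CPM in batch 2. The change, with a batch term shared by all groups, was -1.32 ± 0.42 (adjusted p = 0.0250, edgeR). That adjusted p was 0.0543 or 0.0632 without newborn replicate 2 or 3, 0.0751 or 0.0841 without adult replicate 1 or 3, and 0.178 with the PMN-MDSC pairs as a random block. NK cells carry TRAIL, and the NK marker sum was 0 to 5.48 CPM in newborn and 25.8 to 52.3 CPM in adult M-MDSC, and 3.03 to 5.70 CPM in newborn and 12.1 to 31.7 CPM in adult PMN-MDSC. Of its 6 tested genes 4 were lower in newborn M-MDSC and 3 in newborn PMN-MDSC, Klra8 was at 0 in both newborn groups, and the part of such cells in the result was not tested.

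Tnfsf14, which encodes LIGHT, a ligand of the lymphotoxin beta receptor and of HVEM, was higher in PMN-MDSC than in M-MDSC libraries. Its gene lies at chr17:57189492-57194177 on the minus strand. Levels were 33.5 to 52.3 CPM in newborn PMN-MDSC (42.3 ± 6.90), against 39.1, 65.7 and 97.6 CPM as lowest, median and highest of adult PMN-MDSC (67.4 ± 21.5). The groups overlapped and the change of -0.64 ± 0.32 was not called (adjusted p = 0.110, edgeR), although it was with the size factors of DESeq2 (-0.82, adjusted p = 0.0405). In M-MDSC, newborn levels were 3.85 to 17.6 CPM (9.31 ± 5.85) and adult levels 8.06 to 18.7 CPM (13.1 ± 5.33), a change of -0.41 ± 0.42 (adjusted p = 0.499, edgeR). Against PMN-MDSC, M-MDSC had less Tnfsf14 at both ages without overlap. The change was -2.24 ± 0.36 in newborns (adjusted p = 6.51e-05) and -2.47 ± 0.43 in adults (adjusted p = 0.000312, edgeR). Neutrophil, macrophage and B cell marker sums were likewise higher in PMN-MDSC at both ages. Those of macrophages were 1611 to 2046 CPM in newborn and 1607 to 3554 CPM in adult PMN-MDSC. In M-MDSC they were 441 to 635 CPM in newborns and 968 to 1133 CPM in adults. The part of these cells in the result was not tested.

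Of the receptors, Tnfrsf1b (TNFR2) differed in each comparison between 2 groups. It lies at chr4:145213463-145246870 on the minus strand. In newborn PMN-MDSC it stood at 94.99 to 118 CPM (104 ± 10.2), against 165, 277 and 458 CPM as lowest, median and highest of adult PMN-MDSC (300 ± 124). No newborn value reached the adult range, and the change was -1.52 ± 0.26 (adjusted p = 7.37e-05), or -1.46 without the batch 1 partners (adjusted p = 0.00376, edgeR). In the same comparison B cell marker sums were 652 to 1000 CPM in newborns and 4441 to 7077 CPM in adults. Dendritic cell sums were 77.0 to 92.0 CPM in newborns and 463 to 638 CPM in adults. Other sums, such as those of neutrophils and erythroid cells, were lower in adults. The part of any of these cells in the Tnfrsf1b result was not tested. In M-MDSC it stood at 534 to 919 CPM in newborns (690 ± 142), against 953, 1005 and 1718 CPM in adult replicates 1, 3 and 28 (1225 ± 428). The groups did not overlap, and the change was -0.83 ± 0.29 (adjusted p = 0.0392, edgeR). That call rested on single libraries: without adult replicate 28, one of the 2 libraries with many genes at 0, the change was -0.47 (adjusted p = 0.270), and the adjusted p was 0.0629, 0.0563, 0.0791 or 0.0777 without newborn replicate 1, 3, 77 or 79. In batch 1 alone the change was -0.37 (adjusted p = 0.433). The age effects in M-MDSC and PMN-MDSC were not called different (0.70 ± 0.39, adjusted p = 0.240).

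Tnfrsf1a (TNFR1) was more even. It lies at chr6:125349362-125362484 on the plus strand. Newborn M-MDSC had 296 to 420 CPM (333 ± 50.3) and adult M-MDSC 267 to 411 CPM (360 ± 80.8), with a change of -0.12 ± 0.21 (adjusted p = 0.722, edgeR). In PMN-MDSC it rose in newborns, with 333 to 432 CPM (389 ± 40.5), against 175, 288 and 333 CPM as lowest, median and highest of adults (265 ± 69.4), and the ranges met at their ends. The change of 0.56 ± 0.18 (adjusted p = 0.0139, edgeR) was the smallest of those called, and its call was lost with the size factors of DESeq2 (0.39, adjusted p = 0.0808), with upper-quartile scaling (0.33, adjusted p = 0.127), in batch 1 alone (0.53, adjusted p = 0.197) and without the batch 1 partners (0.63, adjusted p = 0.0630). The difference of the age effects, -0.68 ± 0.28, was not called (adjusted p = 0.0979), but passed without adult M-MDSC replicate 3 (-0.88, adjusted p = 0.0390).

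The death receptors Tnfrsf10b and Fas were not called by age in either cell type. Tnfrsf10b, the mouse TRAIL receptor, lies at chr14:69767472-69784411 on the plus strand. It had 54.5 to 60.7 CPM in newborn PMN-MDSC (58.1 ± 2.34), against 64.2, 71.4 and 83.7 CPM as lowest, median and highest of adult PMN-MDSC (72.9 ± 6.90), and 13.5 to 44.1 CPM in newborn M-MDSC (33.1 ± 11.7), against 25.9, 37.4 and 70.7 CPM in adult M-MDSC (44.7 ± 23.3). Newborn and adult PMN-MDSC did not overlap, but the change was -0.32 ± 0.24 (adjusted p = 0.289). It was called at nearly the same size on PMN-MDSC libraries alone (-0.33, adjusted p = 0.00868, edgeR) and with limma-voom (-0.31, adjusted p = 0.0130). Both of these fits count matched libraries as separate. Without the batch 1 partners it was not called, whether on all groups or on PMN-MDSC alone. In M-MDSC it was -0.38 ± 0.30 (adjusted p = 0.364, edgeR), and 0.08 without adult replicate 1. In newborns it was lower in M-MDSC than in PMN-MDSC without overlap (-0.80 ± 0.26, adjusted p = 0.0171, edgeR), a call lost without the batch 1 partners (-1.03, adjusted p = 0.0802).

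Fas lies at chr19:34290666-34327772 on the plus strand and shares its strand there with Gm27818. It stood at 5.80 to 10.4 CPM in newborn PMN-MDSC (8.01 ± 1.88), against 12.1, 13.5 and 17.2 CPM as lowest, median and highest of adult PMN-MDSC (14.1 ± 2.20), and at 0 to 7.13 CPM in newborn M-MDSC (3.44 ± 2.94), against 6.58 to 11.7 CPM in adult M-MDSC (8.72 ± 2.65). The 0 was replicate 77, the newborn library with many genes at 0. The PMN-MDSC groups did not overlap, yet the change of -0.84 ± 0.65 was not called (adjusted p = 0.312, edgeR). It was called at nearly the same size without newborn M-MDSC replicate 77 (-0.86, adjusted p = 0.0249, edgeR) and on PMN-MDSC libraries alone (-0.85, adjusted p = 0.00133, edgeR). Both of these fits count matched libraries as separate, and on all groups without the batch 1 partners it was not called. In M-MDSC the change was -1.34 ± 0.79 (adjusted p = 0.218, edgeR). Fasl, the ligand of Fas, had 0 counts in every newborn and adult M-MDSC library, and 17 counts over the 5 newborn and 205 counts over the 6 adult PMN-MDSC libraries.

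Between the cell types, 4 of the 9 members were called in newborns, 1 higher and 3 lower in M-MDSC, where 42% of all genes were called (18.7% higher and 23.4% lower) and 38.4% did not overlap. In adults 3 were called, 2 higher and 1 lower, where 29.1% of genes were called (16.7% higher and 12.5% lower) and 29.7% did not overlap. The median member change was -0.70 in newborns, against -0.13 for all genes, and 0.10 in adults, against -0.13. Tnfrsf1b was the member with the firmest difference: it was 6.67-fold higher in M-MDSC than in PMN-MDSC in newborns (2.74 ± 0.28, adjusted p = 3.18e-07) and 4.11-fold higher in adults (2.04 ± 0.28, adjusted p = 2.06e-05, edgeR). Every M-MDSC library was above every PMN-MDSC library, across both ages. Monocyte markers moved with it, with summed levels of 4775 to 5697 CPM in newborn and 6105 to 7712 CPM in adult M-MDSC, against 1166 to 1397 CPM in newborn and 1404 to 2241 CPM in adult PMN-MDSC. Their part in the Tnfrsf1b result was not tested. Tnfsf9 was called higher in adult M-MDSC than in adult PMN-MDSC (4.19 ± 1.00, adjusted p = 0.00403, edgeR), but not without adult M-MDSC replicate 1 (1.59, adjusted p = 0.273). Tnf was not called between the cell types at either age, and in adults its sign rested on the same library: 0.81 ± 0.81 with it and -1.19 without it.

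**Figure D3:**
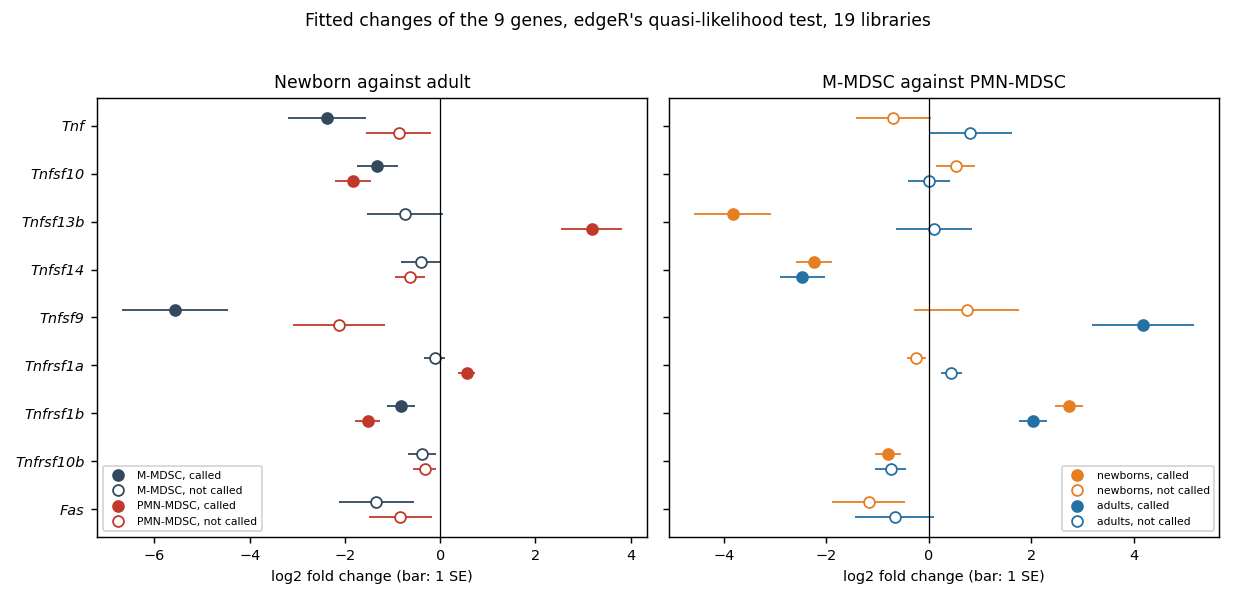
Fitted log2 fold change (x axis) of the 9 genes for newborn against adult (left) and M-MDSC against PMN-MDSC (right), with bars of 1 standard error, filled points for an adjusted p under 0.05 and open points for the others. Tnfsf13b lies at 3.19 in PMN-MDSC and -0.75 in M-MDSC on the left, and Tnfrsf1b lies at 2.74 and 2.04 on the right.

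Levels per length set the members against each other. CPM was divided by the exon length, in kilobases, of the transcripts that the deposited table lists for each gene, and these are means over libraries. In newborn M-MDSC Tnfrsf1b (181 CPM per kilobase) and Tnfrsf1a (128) came first with overlapping ranges, Tnf followed (23.7), and the other 6 members lay at 10.4 or less. In adult M-MDSC Tnfrsf1b led with 321 CPM per kilobase, followed by Tnfrsf1a (139) and Tnf (133), and these last 2 cannot be ordered, since Tnf ran from 28.6 to 338 CPM per kilobase over the libraries. In newborn PMN-MDSC Tnfrsf1a led with 150 CPM per kilobase, ahead of Tnf (35.3), Tnfsf13b (30.8), Tnfrsf1b (27.3) and Tnfsf14 (22.9), which overlapped their neighbours. In adult PMN-MDSC Tnfrsf1a (102), Tnfrsf1b (78.5) and Tnf (66.9) came first with overlapping ranges, and Tnfsf13b was seventh at 3.51 CPM per kilobase. Tnfsf10 was at 0.502 to 2.09 CPM per kilobase in all 4 groups. With all GENCODE transcripts in the length, which makes Tnfsf13b 6868 rather than 1239 bases long, between 2 and 4 members changed place in each group.

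**Figure D4:**
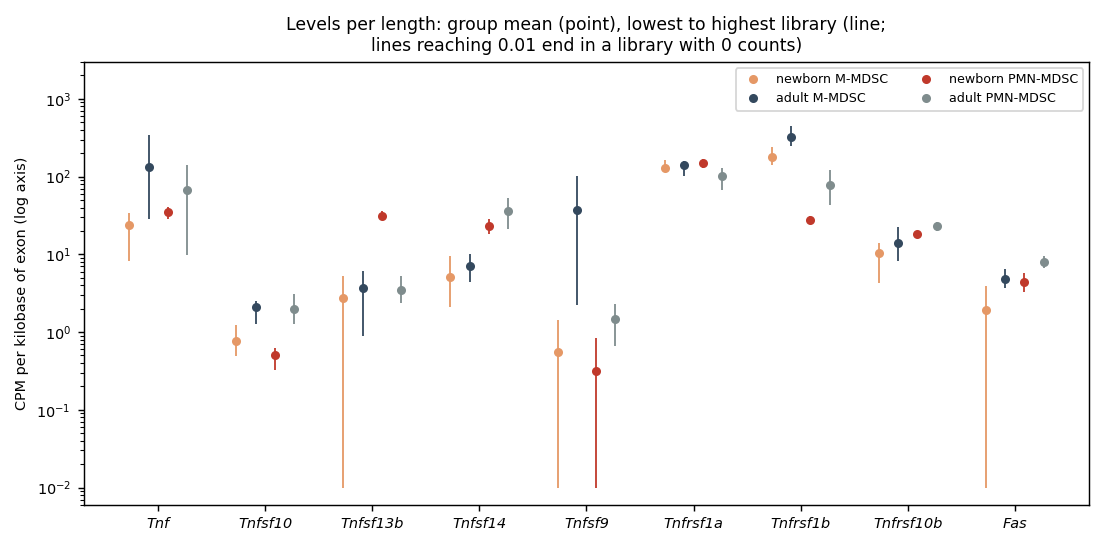
Mean level per length (y axis, CPM per kilobase of exon, log axis) of the 9 genes in the 4 groups, with a line between the lowest and highest library; lines that reach 0.01 end in a library with 0 counts. Tnfrsf1a lies between 102 and 150 in all groups, while Tnfrsf1b runs between 27.3 in newborn PMN-MDSC and 321 in adult M-MDSC.

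The rest of the pathway was read through 7 lists of genes. Of 29 tested genes known to be induced by TNF, 1 was higher and 17 were lower in newborn M-MDSC (median -1.66), and 2 were higher and 17 lower in newborn PMN-MDSC (median -2.02). Over all genes tested, 15.9% were higher and 14.3% lower in M-MDSC, and 27.1% higher and 20.5% lower in PMN-MDSC. Among the genes of the list averaging 5 CPM or more in either group, the largest falls in M-MDSC were of the chemokine genes Cxcl1 (-7.15), Ccl5 (-5.33) and Cxcl2 (-4.29), and in PMN-MDSC of the chemokine genes Ccl4 (-4.96) and Cxcl10 (-4.93) and the maturation marker gene Cd83 (-4.43). Cd83, for example, averaged 12.9 ± 2.18 CPM in newborn and 296 ± 104 CPM in adult PMN-MDSC (SE of the change 0.46, adjusted p = 2.32e-07, edgeR). Mmp9, a gelatinase stored in neutrophil granules, was higher in newborns (1.32 in M-MDSC and 2.29 in PMN-MDSC). The Bcl2a1 genes in the list are near-identical copies, so their split of reads is uncertain. The Cxcl1 value in M-MDSC rested on adult replicate 1, at 22.5 CPM against 0.830 and 0 CPM in adult replicates 3 and 28 and at most 0.464 CPM in newborns, and without it the change was -2.59 and was not called (adjusted p = 0.448, edgeR). Cxcl2 stood at 2.54 to 13.5 CPM in newborn M-MDSC, against 336, 54.0 and 14.2 CPM in adult replicates 1, 3 and 28, and its change was -2.52 without replicate 1 (adjusted p = 0.0103, edgeR). Ccl5 did not turn on that library (-5.34 without it). Without adult M-MDSC replicate 1, 10 rather than 17 genes were lower in M-MDSC, and without the batch 1 partners 16 were lower in PMN-MDSC. The dendritic cell marker sum was 42.9 to 141 CPM in newborn and 343 to 452 CPM in adult M-MDSC, and 77.0 to 92.0 CPM in newborn and 463 to 638 CPM in adult PMN-MDSC, with 6 of its 12 genes lower in each comparison; no marker of the list was at 0 in a whole group. Macrophage marker sums were 441 to 635 CPM in newborn and 968 to 1133 CPM in adult M-MDSC, with 8 of 12 genes lower, and T cell marker sums 13.2 to 57.7 CPM in newborn and 219 to 540 CPM in adult M-MDSC, with 13 of 15 lower. In PMN-MDSC 3 of the 12 macrophage and 5 of the 15 T cell markers were lower in newborns. Of the 12 monocyte markers, 6 were lower in newborn M-MDSC, and 7 were lower and 2 higher in newborn PMN-MDSC. The part of all these cells, and of B cells, in these counts was not tested.

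Genes that restrain TNF signalling were in part lower in newborns as well. Of 17 tested negative regulators, 10 were lower and 0 higher in M-MDSC (median -0.80), where 14.3% of all genes were lower, and 11 were lower and 0 higher in PMN-MDSC (median -1.24), where 20.5% were. Tnfaip3 averaged 141 ± 90.6 CPM in newborn and 1083 ± 1253 CPM in adult M-MDSC, and 74.1 ± 16.8 CPM in newborn and 840 ± 469 CPM in adult PMN-MDSC (changes of -2.88 in M-MDSC, adjusted p = 0.00303, and -3.48 in PMN-MDSC, adjusted p = 0.000104, edgeR). Without adult M-MDSC replicate 1 the change in M-MDSC was -1.40 and was not called (adjusted p = 0.0814). Zfp36l1, one of the mRNA decay factors that bind AU-rich stretches such as the one in Tnf, fell by 2.56 in M-MDSC and by 3.14 in PMN-MDSC, and Zfp36 (-1.66 in M-MDSC and -1.24 in PMN-MDSC) and Zfp36l2 (-0.64 in M-MDSC and -1.72 in PMN-MDSC) fell too. The NF-kB inhibitor genes Nfkbia (-2.23 in PMN-MDSC) and Nfkbie (-3.22 in M-MDSC) were among the other large falls. Without adult M-MDSC replicate 1, 7 negative regulators were lower in M-MDSC and 1 was higher. Without the batch 1 partners 8 were lower in M-MDSC and 8 in PMN-MDSC. Fits on the compared groups alone had 6 lower in M-MDSC and 13 in PMN-MDSC.

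**Figure D5:**
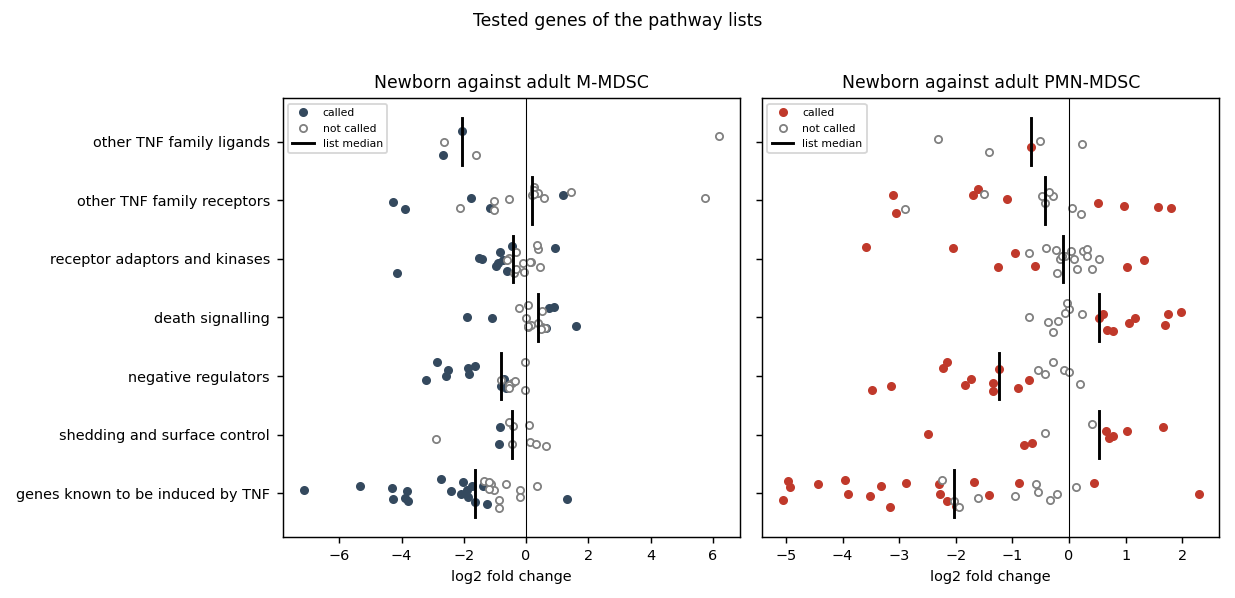
Log2 fold change (x axis) of each tested gene of 7 lists (rows) for newborn against adult M-MDSC (left) and PMN-MDSC (right), with filled points for an adjusted p under 0.05, open points for the others and a bar at the list median. Genes known to be induced by TNF (medians -1.66 and -2.02) and negative regulators (-0.80 and -1.24) lie mostly left of 0, and death signalling genes in PMN-MDSC (0.52) mostly right of it.

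Of 17 tested death signalling genes, 9 were higher and 0 lower in newborn PMN-MDSC (median 0.52), where 27.1% of all genes were higher and 20.5% lower. In the same comparison 10 of 12 neutrophil and 16 of 18 erythroid markers were higher in newborns, with the summed levels given below, and their part in this count was not tested. The 9 genes included Apaf1, the scaffold of the apoptosome (323 ± 19.9 CPM in newborn and 95.9 ± 13.02 CPM in adult PMN-MDSC) and Mlkl, which executes necroptosis (9.40 ± 3.07 CPM in newborn and 2.84 ± 0.876 CPM in adult PMN-MDSC). The brake on caspase-8, Cflar, was higher as well (253 ± 7.73 CPM in newborn and 120 ± 16.6 CPM in adult PMN-MDSC), so the 9 do not all act in one direction. Without the batch 1 partners 3 genes were higher and 0 lower, and with the size factors of DESeq2, under which the median of all genes fell by 0.17, 7 genes were higher and 3 lower. In M-MDSC 4 were higher and 2 lower (median 0.40), against 15.9% and 14.3% of all genes. There Mlkl rose (1.61, adjusted p = 0.00670), while Daxx (-1.89) and Cflar (-1.09, adjusted p = 0.00753, edgeR) fell, and Cflar stood at 395 CPM in adult replicate 1 and at 136 and 139 CPM in the other 2 adult libraries. Without replicate 1 its change was -0.39 and was not called (adjusted p = 0.177).

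The remaining lists were mixed, and their counts stand beside 15.9% higher and 14.3% lower of all genes in M-MDSC and 27.1% higher and 20.5% lower in PMN-MDSC. Of 22 receptor adaptors and kinases, 1 was higher and 9 lower in newborn M-MDSC (median -0.42), and 2 were higher and 5 lower in newborn PMN-MDSC (median -0.10). Without adult M-MDSC replicate 1, 0 were higher and 6 lower in M-MDSC. Traf1, an adaptor of TNFR2 that is itself induced by NF-kB, fell most in both (4.12 ± 1.96 CPM in newborn and 83.5 ± 56.8 CPM in adult M-MDSC; 4.42 ± 1.53 CPM in newborn and 51.4 ± 17.7 CPM in adult PMN-MDSC), followed by Map3k14 (-1.52) and Birc3 (-1.41) in M-MDSC and Traf5 (-2.05) in PMN-MDSC, where Tab1 rose (1.32). Of 17 tested other receptors of the family, 1 was higher and 4 lower in M-MDSC, and 4 were higher and 5 lower in PMN-MDSC, the last 2 counts near the shares of all genes. Tnfrsf21, a death receptor also called DR6, was higher in newborn PMN-MDSC (222 ± 28.8 CPM, against 63.8 ± 14.8 CPM in adult PMN-MDSC). Cd40 (-1.75) and the T and B cell costimulatory receptor gene Cd27 (-4.28) were lower in newborn M-MDSC; T cell and B cell markers fell in the same comparison, as given above, and their part was not tested. The Cd27 call was lost without adult M-MDSC replicate 3 (adjusted p = 0.0645). Of the 13 other ligands 5 could be tested, and Ltb, which encodes lymphotoxin beta and is made by lymphocytes, was lower in both (-2.66 in M-MDSC, adjusted p = 1.23e-05, and -0.68 in PMN-MDSC, adjusted p = 0.0484, edgeR). The call in PMN-MDSC was kept in 5 of 19 fits that left out 1 library and was lost without the batch 1 partners (-0.75, adjusted p = 0.224). Tnfsf12, the ligand TWEAK, fell in M-MDSC (-2.05), though not without adult M-MDSC replicate 28 (adjusted p = 0.172). Of 10 tested genes for shedding and surface control, 0 were higher and 2 lower in M-MDSC, and 5 were higher and 3 lower in PMN-MDSC. The 2 in M-MDSC were Adam17 (-0.87), the protease that frees TNF and its receptors from the membrane, and Rhbdf2 (-0.82), which carries it to the surface. Both calls were lost without adult M-MDSC replicate 1 (-0.60 for Adam17, adjusted p = 0.0642, and -0.55 for Rhbdf2, adjusted p = 0.0660). In PMN-MDSC Frmd8 (1.66) and Pacs2 (1.02) rose and Rhbdf1 (-2.49) fell, and the call of Rhbdf1 was kept in 4 of 19 fits that left out 1 library. Without the batch 1 partners 3 genes were higher and 0 lower in PMN-MDSC.

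Between the cell types, other genes of the pathway differed in both directions. Tnfsf12 was higher in M-MDSC than in PMN-MDSC in newborns (2.31 ± 0.56) and adults (3.85 ± 0.57), and Tnfsf13, the ligand APRIL, in adults (3.68 ± 1.16, adjusted p = 0.0233, edgeR). In newborns Ltb (-2.92) and Tnfrsf13c (-2.68) were lower and the receptor gene Tnfrsf8 (3.33) higher in M-MDSC. All 13 B cell markers measured were lower in the same comparison, and the part of B cells in these changes was not tested. In adults Ltbr, the lymphotoxin beta receptor, was higher (1.96) and the decoy TRAIL receptor gene Tnfrsf23 lower (-3.06, adjusted p = 0.0199, edgeR). Of 17 death signalling genes, 5 were higher and 2 lower in newborn M-MDSC and 8 were higher and 0 lower in adult M-MDSC, where 18.7% of all genes were higher and 23.4% lower in newborns and 16.7% and 12.5% in adults, with Ripk3 (1.77) and Faim (2.35) named in newborns and Daxx (1.73) and Mlkl (1.44) in adults. Among adaptors, Ikbkb (1.29) was higher and Traf3 (-1.17) lower in newborn M-MDSC, and Tradd (1.28) was higher and Tab3 (-1.72) lower in adult M-MDSC. Mmp9 had the widest gap of the genes known to be induced by TNF (-7.36 in newborns and -6.40 in adults), followed by Vcam1 in newborns (-4.58) and Il1b in adults (-4.58). Mmp9 is also among the 12 neutrophil markers, of which 12 were lower in M-MDSC in newborns and 11 in adults, with 0 higher. Vcam1 is also among the 12 macrophage markers, of which 10 were lower and 1 higher in newborns. The part of these cells in the gaps was not tested. The newborn calls of the single pathway genes named in this paragraph were kept in every fit that left out 1 library. In adults those of Tnfsf13, Tnfrsf23, Tab3, Tradd and Mlkl were lost in at least 1 such fit: the highest adjusted p was 0.102 for Tnfsf13, 0.118 for Tab3 and 0.828 for Tradd without adult M-MDSC replicate 28, 0.0791 for Mlkl without adult M-MDSC replicate 1, and 0.0605 for Tnfrsf23 without adult PMN-MDSC replicate 1. The call of Tradd was kept in 6 of 19 such fits.

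Genes with a pattern most like each member over the 19 libraries were ranked by the root-mean-square difference of centred log2 CPM among 9526 genes. Ier3, an early response gene, was nearest to Tnf at 0.57, followed by Sqstm1 and Zfand2a at 0.66 each, where Tnf itself had an SD of 1.28. Nearest to Tnfrsf1b were Trex1 (0.34), Mpeg1 (0.38) and Ehd4 (0.43), with an SD of 1.31 for Tnfrsf1b. Nearest to Tnfrsf1a were Dhx38 (0.18), Abr (0.20) and Rab11b (0.21), with an SD of only 0.36 for Tnfrsf1a. Among the nearest to Tnfrsf10b were Sf3b1 (0.18) and Kmt2e (0.20), with an SD of 0.64 for Tnfrsf10b. Nearest to Tnfsf13b were Hcst, Ermap and Arhgef4 at 0.75 to 0.89, with an SD of 1.96 for Tnfsf13b. Hcst averaged 31.6 CPM in newborn and 9.01 CPM in adult PMN-MDSC, and Ermap, an erythroid membrane protein gene, 34.6 CPM in newborn and 9.58 CPM in adult PMN-MDSC. Erythroid marker sums moved with them, at 3246 to 5716 CPM in newborn and 200 to 521 CPM in adult PMN-MDSC, with 16 of 18 markers higher, and so did neutrophil marker sums, at 101772 to 114218 CPM in newborn and 10462 to 11153 CPM in adult PMN-MDSC. Eosinophil marker sums were higher as well, at 294 to 781 CPM in newborn and 63.7 to 123 CPM in adult PMN-MDSC. So were those of platelets and megakaryocytes, at 150 to 225 CPM in newborn and 56.4 to 75.1 CPM in adult PMN-MDSC. The part of any of these cells in the Tnfsf13b result was not tested. For the remaining members the 3 nearest genes were Prr3, Rfx5 and Itga4 for Tnfsf10, Ubxn2b, Prl8a1 and Tmem62 for Fas, Iqsec1, Entpd1 and Spic for Tnfsf14, and Id3, Rgag4 and Serpinb8 for Tnfsf9, the last 3 at 1.36 each. All of these likenesses share the libraries, their depth and their groups.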

How the data were processed

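RNA was measured in 19 libraries of 4 groups, read as 50 bp single-end reads of total RNA. The deposited values are estimated counts, whole numbers without normalization in 1 table over genes; RSEM 1.2.3, the build mm10 and, with no role, DESeq2 are named per the submitters' processing notes. Aligner and annotation: not given in the sources used here. Groups, replicate numbers and batches came from the labels.

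All counts entered 1 edgeR 4.0.16 quasi-likelihood model (R 4.3.3) with group and batch terms, TMM scaling and edgeR's expression filter, which left 12943 of 38887 genes and 14 residual degrees of freedom; rounding changed no value, and the model was tested on simulated data. P-values were Benjamini-Hochberg adjusted over the genes of each comparison, and calls were made under 0.05. CPM are counts relative to the scaled library size, with the SD over libraries. GENCODE M21 on GRCm38 gave coordinates and exon lengths, and RefSeq on GRCm38.p6 gave promoters.

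The members and gene lists were chosen with earlier results of these data known. All 9 members are given; from each list, the named genes are the up to 3 called genes (up to 2 between cell types) with the largest change among those averaging 5 CPM or more in the higher group. The likeness ranking took genes of at least 10 CPM. A few genes that these rules name are not reported here. Genes named outside this rule (Tnfaip3, Nfkbia, Ier3, Hdc, Mcpt8, Tpsb2 and Cd83 by library, Fasl, Tnfrsf9, Tnfrsf13b in M-MDSC, Zfp36, Zfp36l2, and Cflar and Mmp9 where not among the largest) were chosen after their values were seen. Alternatives covered the batch term, single batches, fits on the compared groups, a block of replicate numbers, matched libraries left out or taken as a random block, scaling, DESeq2 1.42.0, limma 3.58.1 (voom with quality weights), the filter, gene length and each library left out. Leaving out the 2 libraries with many genes at 0, PMN-MDSC alone without the batch 1 partners, length over all transcripts, and the list counts and named genes under alternatives were chosen after seeing the data. Reads carry no molecular identifiers, so floors cover counting error only.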

Additional observations from a re-analysis of the deposited data

Results flagged for a closer look

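Tnfrsf1a stood at 420 CPM in newborn M-MDSC replicate 2, against 328 CPM in the nearest of the 4 other newborn M-MDSC libraries, a gap of 0.736 of the group's whole range. It was 1 of 27 groups of 4 to 10 libraries examined for a value far from the rest, and chance flags about 1 in 20 groups. The age effect on Tnfsf13b differed between M-MDSC and PMN-MDSC by -3.93 on the log2 scale, by the test of the difference itself.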

How the results depend on the processing

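Leaving out each of the 19 libraries gave 855 values for members and comparisons, of which 807 kept their direction and side of the threshold, 16 lost a call, 7 gained one and 25 changed sign; the other alternatives gave 702, with 610, 33, 25 and 34. No change that turned was called in either fit, and the cause of the changes was not tested. With each library left out in turn, 4 to 6 members were called by age in PMN-MDSC, 1 to 4 in M-MDSC, 1 to 3 for the difference of the age effects, 4 to 4 between cell types in newborns and 3 to 4 in adults. Fits on the compared groups alone called 8 in PMN-MDSC and 0 in M-MDSC, and limma-voom with quality weights called 8 and 2. Batch 1 alone called 2 in M-MDSC and 0 for the difference, and batch 2 alone 1 in M-MDSC. Without the batch 1 partners of matched libraries 2 were called in PMN-MDSC, 2 in M-MDSC and 0 for the difference, and without the 2 libraries with many genes at 0, 2 in M-MDSC. The block of replicate numbers, and the matched libraries as a random block, each called 2 for the difference. Replicate numbers shared by groups gave 12 pairs, whose deviations correlated at -0.05 to 0.18. Only adult PMN-MDSC with adult M-MDSC were over 0.1, at 0.176 for replicate 1 and 0.182 for replicate 3. Those groups share no other number. Whether such adult libraries share animals is not in the labels and was not tested. The main fit did not take the numbers as pairs. Under the block, Tnf by age in M-MDSC was not called (-1.55, adjusted p = 0.138, edgeR). Tnfrsf10b between cell types in adults (-0.95, adjusted p = 0.0139, edgeR) and Tnfrsf1a for the difference (-0.77, adjusted p = 0.0468, edgeR) were called. Tnfrsf10b was at 0.00984 for the difference and Tnfsf10 at -0.10 between cell types in adults.

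Leaving out 1 library turned these signs: Tnf for the difference (-2.04 to 0.47) and between cell types in adults (-1.19 to 1.40), Tnfrsf10b for the difference (-0.40 to 0.39) and by age in M-MDSC (-0.73 to 0.0758), Tnfrsf1a by age in M-MDSC (-0.28 to 0.0494), Tnfsf10 (-0.13 to 0.23) and Tnfsf13b (-0.26 to 0.44) between cell types in adults, Tnfsf14 for the difference (-0.0915 to 0.52) and Tnfsf9 between cell types in newborns (-0.76 to 1.23). Tnfsf10 between cell types in adults also turned with a batch coefficient per cell type (-0.0166), compared groups alone (-0.0534), batch 1 (-0.0135) or batch 2 alone (-0.29), DESeq2 size factors (-0.0618), upper-quartile scaling (-0.0184), DESeq2 (-0.0668), no filter (-0.0341) and the random block (-0.0652). Tnfrsf10b turned for the difference with batch 2 alone (0.82), DESeq2 size factors (0.0288), upper-quartile scaling (0.12), DESeq2 (0.0363), limma-voom (0.0400) and the random block (0.51), and by age in M-MDSC with batch 2 alone (0.56) and the random block (0.16). By age in M-MDSC, Tnfrsf1a turned in batch 1 (0.0642), with limma-voom (0.0608) and without the zero-rich libraries (0.0594), Tnfsf13b in batch 1 (0.10) and Tnfsf14 in batch 2 (0.12). For the difference, Tnfsf14 turned in batch 1 (-0.0304), Tnf (0.16) and Tnfrsf1b (-0.0535) in batch 2, and Fas with limma-voom (0.0361) and without the zero-rich libraries (0.17). Between cell types, Tnf in adults turned in batch 2 (-1.17) and without the partners (-0.00962), Tnfsf13b in adults without the partners (-0.39) and without the zero-rich libraries (-0.00693), and Tnfsf9 in newborns with the random block (-0.19).

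Low counts limit Tnfsf9 most: it did not pass the stricter filter, which is set on CPM. It also has no value in batch 1 alone, in the M-MDSC fits on compared groups or without the zero-rich libraries. The fit on compared groups has no value for the difference. Of 72 group levels under other scalings 8 moved by more than 1 SD, 7 of them in newborn PMN-MDSC. The members' order by level had 2 to 6 members out of place without division by length.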
